A study of Mus musculus with 15 samples.

Results

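p53, encoded by Trp53, and 9 of its established target genes were followed through the knockdown of Smarcb1 in mouse embryonic stem cells. The genes were chosen by name: Trp53, Mdm2, Ccng1, Zmat3, Phlda3, Trp53inp1, Bax, Bbc3, Pmaip1 and Fas, 10 of the 55228 genes listed in every library. All cells were of the line 81K1, a derivative of the embryonic stem cell line OG2. Its Rosa26 locus carries a cassette for an anti-Smarcb1 shRNA under a doxycycline-dependent promoter, placed there by recombinase-mediated exchange in the single clone K1. The kd cells received 1 µg doxycycline per ml of medium each day for 48 h, 72 h or 240 h. The ctrl cells carried the same cassette, were left untreated and were sampled at 48 h and 240 h, all in medium with serum and LIF. Each of the 5 groups had 3 RNA-seq libraries, and neither a 72 h ctrl group nor treated cells lacking the shRNA were analysed here. The labels do not say that the 3 libraries of a group came from separate cultures, so p-values measure the spread between these libraries.

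p53 is a transcription factor that is held low by the ubiquitin ligase Mdm2, which marks the p53 protein for degradation. When DNA is damaged or cells are otherwise stressed, the protein accumulates, binds DNA as a tetramer and switches on genes that stop the cell cycle, repair DNA or start cell death. Mdm2 is itself one of these genes, so that the activator induces its own inhibitor. Much of this control acts on the protein, which RNA-seq does not measure.

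p53 recognises a DNA sequence made of 2 half-sites of 10 bases each. RefSeq promoter windows (GRCm38.p6, the build of the deposited tables, 250 bases before to 50 after a start site) were present for 7 of the 10 genes, all except Zmat3, Trp53inp1 and Pmaip1. At least 1 exact match to the p53 half-site consensus lay in the windows of Trp53, Mdm2, Ccng1 and Bax, and none in those of Phlda3, Bbc3 and Fas. The consensus reads the same on both strands, so 1 scan covered both. Of all 32851 windows, 8.36% held a half-site, and 0.0731% held a pair of half-sites with at most 13 bases between them. By gene, 9.55% of the 27025 genes with a window had a half-site and 0.0740% a pair. None of the 7 genes had a pair. Of 35 further targets with a window, listed for the pathway below, 10 had a half-site and 1, Cdkn1a, a pair. The stretches are shown 5′ to 3′ on the strand of the gene because they hold the letters p53 binds, with exact half-sites in capitals.
Mdm2, chr10:117710923-117710956, minus strand: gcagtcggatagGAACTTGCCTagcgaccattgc
Ccng1, chr11:40755450-40755483, minus strand: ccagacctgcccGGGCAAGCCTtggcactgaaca
Bax, chr7:45467078-45467111, minus strand: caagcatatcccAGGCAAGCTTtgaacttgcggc
Trp53, chr11:69580272-69580305, plus strand: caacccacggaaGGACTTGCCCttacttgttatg
Cdkn1a, chr17:29090894-29090949, plus strand: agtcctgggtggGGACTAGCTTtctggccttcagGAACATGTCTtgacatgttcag
The half-site began 186 bases before the start site in Mdm2, 185 in Ccng1, 201 in Bax and 75 in Trp53. A match describes the letters only and does not show binding, and sites outside these windows were not searched.

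The libraries held between 11074998 and 14515300 reads, of which the 9 genes other than Fas took from 311 (Pmaip1) to 7803 (Trp53) each. Smarcb1, the targeted gene, lay between 3.31 and 3.93 FPKM in the 6 ctrl libraries and between 0.503 and 0.820 FPKM in the 9 kd libraries, so every library matched its label. Its log2 fold change was −2.33 at 48 h, −2.48 at 72 h and −2.21 at 240 h (adjusted p = 0.0017, 4.2e-05 and 5.7e-05). FPKM here is reads per length of the whole gene span, introns included, scaled to the library total, so levels of different genes are not compared. All 7 markers of pluripotent stem cells were above 0.5 FPKM in every group, and their summed level was 1382 to 1617 FPKM in the ctrl libraries and 1458 to 2440 FPKM in the kd libraries. Dppa5a made up much of that sum, rising from a mean of 765 FPKM in 48 h ctrl to 1570 FPKM in 72 h kd, whereas 2 of the 7, Esrrb and Zfp42, fell at 240 h. Summed levels of 7 fibroblast markers were 0.859 to 0.976 FPKM in 240 h ctrl and 1.37 to 1.58 FPKM in 240 h kd, and between 0.525 and 0.929 FPKM in the 48 h and 72 h libraries. Of the 2 tested in limma at 240 h, Col1a1 (means 0.261 FPKM in ctrl and 0.923 FPKM in kd) was called higher. The other, Thy1, was lower at an adjusted p under 0.05 but under the required fold. Summed levels of 6 primitive endoderm markers were 0.578 to 0.596 FPKM in 48 h ctrl, 0.243 to 0.327 FPKM in 48 h kd and 0.155 to 0.244 FPKM in 72 h kd, and 0.768 to 0.804 FPKM in 240 h ctrl against 0.564 to 0.694 FPKM in 240 h kd. The lower sum at 240 h came from Sox7, which voom called lower, while it called Dab2, Gata6 and Pdgfra, each under 0.1 FPKM, higher. Those of 6 neural markers were 20.5 to 22.4 FPKM in the ctrl libraries and 24.2 to 35.6 FPKM in the kd libraries, but of the 3 markers tested Sox1 rose, Tubb3 fell and Nes was 0.718-fold ctrl, under the required fold, at 72 h, whereas Sox1 and Nes rose at 240 h and Tubb3 was 1.14-fold ctrl (adjusted p = 0.11). The part of these shifts in the results was not tested, and in bulk RNA fewer cells with a transcript cannot be told apart from less transcript per cell.

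Trp53 (chr11:69580359-69591873) did not pass the test in any comparison. In the 48 h ctrl libraries it was at 43.3, 45.7 and 48.1 FPKM, in the 48 h kd libraries at 44.5, 39.2 and 45.0 FPKM and in the 72 h kd libraries at 45.0, 46.1 and 45.6 FPKM. The 240 h ctrl libraries gave 45.1, 48.0 and 48.5 FPKM and the 240 h kd libraries 45.0, 46.7 and 45.2 FPKM. The groups overlapped throughout, and the lowest value belonged to 48 h kd replicate 2. That library also had the highest share of mitochondrial reads, 2.35% against 0.469% to 1.81% in the others, whose part in the result was not tested. Without it the 48 h log2 fold change was −0.03 (adjusted p = 0.75). The log2 fold change was −0.09 (95% interval −0.27 to 0.09) at 48 h, −0.00 (−0.11 to 0.10) at 72 h and −0.05 (−0.15 to 0.05) at 240 h, with adjusted p-values of 0.44, 0.96 and 0.41. These intervals do not reach the log2 change of 0.58 in either direction that was required, beside an adjusted p under 0.05 in limma, for a gene to be called.

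**Figure D1:**
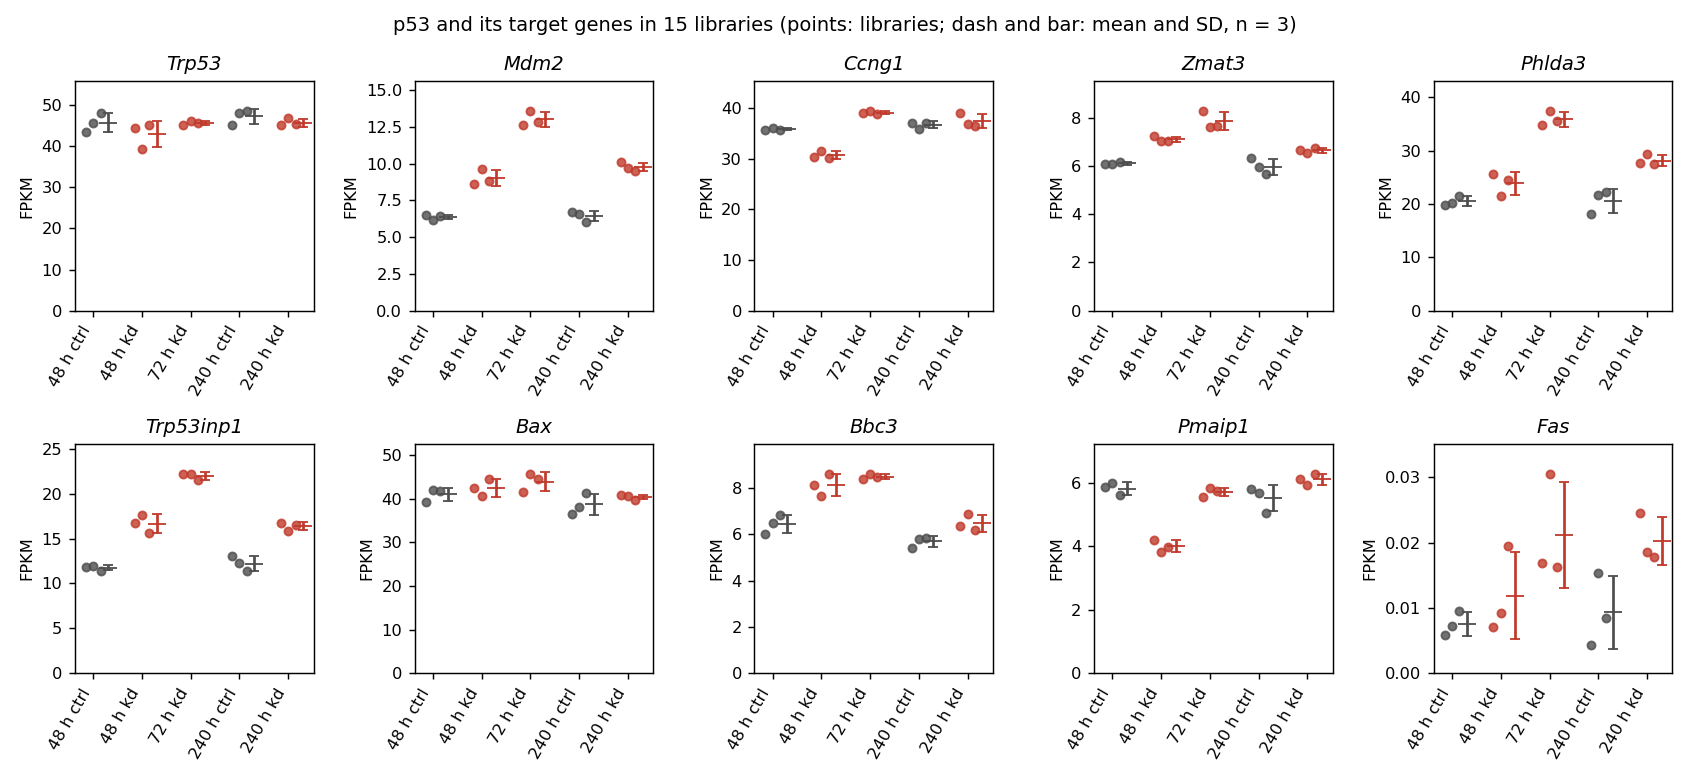
FPKM of Trp53 and its 9 target genes (vertical axes, each from 0) in the 3 libraries of each of the 5 groups (horizontal axis). Points are libraries (grey ctrl, red kd), dashes with bars the mean and SD (n = 3). Mdm2, Zmat3, Phlda3 and Trp53inp1 are higher in the 3 libraries of 72 h kd than in all other libraries, Pmaip1 is lowest in 48 h kd, and Trp53 and Bax overlap between groups.

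Mdm2 (chr10:117688875-117710758), the inhibitor of p53, had the largest difference of the 9 genes tested at 72 h. It lay at 6.49, 6.18 and 6.44 FPKM in the 48 h ctrl libraries, 8.61, 9.63 and 8.83 FPKM in the 48 h kd libraries and 12.6, 13.6 and 12.9 FPKM in the 72 h kd libraries. After 240 h the ctrl libraries were at 6.68, 6.61 and 6.07 FPKM and the kd libraries at 10.1, 9.70 and 9.52 FPKM. Every kd library was above every ctrl library, and the 72 h kd libraries were above all others. Mdm2 rose 2.03-fold at 72 h (log2 fold change 1.02 ± 0.04 SE, adjusted p = 4.5e-05) and 1.51-fold at 240 h (0.59 ± 0.05, adjusted p = 0.00067). At 48 h it was 1.41-fold higher, which passed the adjusted p (0.0047) but not the required fold. The 240 h value lay close to the required fold, and the call was lost without 240 h ctrl replicate 3 (log2 fold change 0.55) or without 240 h kd replicate 1 (0.57). In the order of group means, the 2 ctrl groups did not differ (adjusted p = 0.85), and the 48 h kd and 240 h kd effects did not differ beyond their error (difference 0.10, 95% interval −0.07 to 0.26, adjusted p = 0.41).

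Among the 3 targets that act on the cell cycle or feed back on growth signals, Phlda3 rose, and Zmat3 and Ccng1 differed by less than the required fold at every time. Phlda3 (chr1:135766119-135769136) encodes a small protein that competes with Akt for membrane lipids and so dampens survival signalling. It was at 19.7, 20.3 and 21.5 FPKM in the 48 h ctrl libraries, 25.6, 21.5 and 24.4 FPKM in the 48 h kd libraries and 34.7, 37.4 and 35.5 FPKM in the 72 h kd libraries. The 240 h libraries were at 18.1, 21.6 and 22.2 FPKM in ctrl and 27.6, 29.3 and 27.4 FPKM in kd. The groups overlapped at 48 h and were apart at 72 h and 240 h. Phlda3 rose 1.75-fold at 72 h (log2 fold change 0.80 ± 0.05 SE, adjusted p = 0.00012), was 1.37-fold higher at 240 h (adjusted p = 0.012, under the required fold) and 1.16-fold higher at 48 h (adjusted p = 0.12, or 0.030 without 48 h kd replicate 2). It was also the gene called between 72 h kd and 48 h kd, where it rose 1.51-fold (log2 fold change 0.59 ± 0.08 SE, adjusted p = 0.0038), a call lost without 48 h kd replicate 2 (0.52) or 72 h kd replicate 2 (0.56).

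Zmat3 encodes a zinc finger protein that binds RNA. Its levels were 6.09, 6.07 and 6.16 FPKM in 48 h ctrl, 7.24, 7.03 and 7.06 FPKM in 48 h kd and 8.29, 7.63 and 7.68 FPKM in 72 h kd. At 240 h they were 6.32, 5.97 and 5.66 FPKM in ctrl and 6.65, 6.55 and 6.76 FPKM in kd. As for Mdm2, all kd libraries were above all ctrl libraries, yet the distances were small. Zmat3 was 1.16-fold higher at 48 h (adjusted p = 0.012), 1.28-fold higher at 72 h (adjusted p = 0.00088) and 1.11-fold higher at 240 h (adjusted p = 0.055). Its adjusted p at 48 h was 0.050 to 0.070 without any 1 of the 48 h ctrl libraries or 48 h kd replicate 3, and that at 240 h was 0.026 without 240 h ctrl replicate 1.

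Ccng1 encodes cyclin G1, which recruits the phosphatase PP2A to Mdm2. It was at 35.7, 36.1 and 35.8 FPKM in 48 h ctrl, 30.3, 31.6 and 30.1 FPKM in 48 h kd and 39.0, 39.4 and 38.9 FPKM in 72 h kd. At 240 h the ctrl libraries were at 37.1, 35.9 and 37.1 FPKM and the kd libraries at 39.1, 36.8 and 36.4 FPKM. The 48 h kd libraries were below and the 72 h kd libraries above the 48 h ctrl libraries without overlap, while the groups overlapped at 240 h. Its level at 48 h was 0.856-fold that of ctrl (adjusted p = 0.016) and at 72 h 1.09-fold (adjusted p = 0.0051), and between 72 h kd and 48 h kd it was 1.28-fold higher (adjusted p = 0.0024), all under the required fold. The adjusted p at 48 h was 0.054 to 0.084 when any 1 library other than 48 h kd replicate 2 was left out. The effect at 240 h exceeded that at 48 h by 0.25 on the log2 scale (adjusted p = 0.0079), also under it.

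Of the 5 genes that promote cell death, Trp53inp1 rose at 72 h, Bax, Bbc3 and Pmaip1 were tested and not called at any time against ctrl, and Fas had too few reads for the test. Trp53inp1 (chr4:11156431-11174379) encodes a nuclear protein that promotes phosphorylation of p53 and also acts in autophagy. It was at 11.8, 11.96 and 11.4 FPKM in 48 h ctrl, 16.8, 17.7 and 15.6 FPKM in 48 h kd and 22.2, 22.2 and 21.5 FPKM in 72 h kd. At 240 h it was at 13.04, 12.3 and 11.4 FPKM in ctrl and 16.7, 15.9 and 16.5 FPKM in kd. Every kd library was above every ctrl library. Trp53inp1 rose 1.86-fold at 72 h (log2 fold change 0.90 ± 0.03 SE, adjusted p = 3.4e-05), and was 1.42-fold higher at 48 h (adjusted p = 0.0050) and 1.34-fold higher at 240 h (adjusted p = 0.0037), both under the required fold.

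Bax, Bbc3 and Pmaip1 belong to the Bcl2 family: Bax permeabilises the outer mitochondrial membrane, and the BH3-only proteins Puma (Bbc3) and Noxa (Pmaip1) bind the prosurvival members. Bax lay at 39.3, 42.0 and 41.8 FPKM in 48 h ctrl, 42.4, 40.5 and 44.6 FPKM in 48 h kd and 41.5, 45.7 and 44.5 FPKM in 72 h kd. The values after 240 h were 36.6, 38.1 and 41.3 FPKM in ctrl and 40.8, 40.6 and 39.8 FPKM in kd. The groups overlapped at every time. Its log2 fold change was 0.05 (95% interval −0.08 to 0.18) at 48 h, 0.10 (−0.02 to 0.22) at 72 h and 0.06 (−0.06 to 0.19) at 240 h, with adjusted p-values of 0.56, 0.14 and 0.38. Bax shares 915 bases, 17.6% of its span, with the listed gene Gm45808 on the same strand, which had 755 to 957 reads where Bax had 2367 to 3073, so reads of the shared stretch cannot be told apart.

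Bbc3 was at 6.01, 6.47 and 6.81 FPKM in 48 h ctrl, 8.12, 7.63 and 8.58 FPKM in 48 h kd and 8.38, 8.60 and 8.44 FPKM in 72 h kd. The 240 h libraries gave 5.42, 5.78 and 5.85 FPKM in ctrl and 6.37, 6.87 and 6.17 FPKM in kd. Each kd group was above its ctrl group without overlap, but the 240 h kd libraries lay within the range of the 48 h ctrl libraries or just above it. Bbc3 was 1.26-fold higher at 48 h (adjusted p = 0.028), 1.31-fold at 72 h (adjusted p = 0.0015) and 1.14-fold at 240 h (adjusted p = 0.048), each under the required fold. The adjusted p at 240 h was 0.061 to 0.12 when any 1 library was left out, and that at 48 h was 0.054 to 0.095 without any 1 library other than 48 h kd replicate 2. Of the 9 genes tested, it had the largest difference between the ctrl groups, 0.886-fold at 240 h against 48 h (adjusted p = 0.13), and was the only one of them whose 2 ctrl groups did not overlap.

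Pmaip1 was lower at 48 h by less than the required fold, as was Ccng1. It was at 5.87, 5.99 and 5.60 FPKM in 48 h ctrl, 4.21, 3.83 and 3.99 FPKM in 48 h kd and 5.57, 5.84 and 5.74 FPKM in 72 h kd. Its 240 h values were 5.80, 5.69 and 5.04 FPKM in ctrl and 6.11, 5.94 and 6.29 FPKM in kd. The 48 h kd libraries were the lowest of all, the 72 h kd libraries overlapped the ctrl libraries, and the 240 h kd libraries were above their ctrl libraries. Pmaip1 was 0.694-fold ctrl at 48 h (log2 fold change −0.53 ± 0.05 SE, adjusted p = 0.0035, under the required fold), 0.982-fold at 72 h (adjusted p = 0.58) and 1.11-fold at 240 h (adjusted p = 0.12). The 240 h effect exceeded the 48 h effect by 0.67 ± 0.08 SE on the log2 scale (adjusted p = 0.00043), the only 1 of the 9 differences between these effects that was called. Across all genes tested, 5.82% were called in that comparison.

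Fas, the death receptor of the TNF receptor family, was far under the minimum of 0.5 FPKM and was not tested. It had 3, 3 and 4 reads in the 48 h ctrl libraries, 3, 4 and 8 in 48 h kd and 8, 14 and 8 in 72 h kd. At 240 h it had 2, 7 and 4 reads in ctrl and 12, 10 and 9 in kd. The kd libraries had more reads than their ctrl libraries without overlap at 72 h and 240 h. The group sums were 10 reads for 48 h ctrl (exact Poisson 95% interval 4.80 to 18.4), 15 for 48 h kd (8.40 to 24.7) and 30 for 72 h kd (20.2 to 42.8). For 240 h they were 13 in ctrl (6.92 to 22.2) and 31 in kd (21.1 to 44.0). Scaled to the library totals, the ratio to ctrl was 1.58 (0.664 to 3.93) at 48 h, 2.82 (1.34 to 6.47) at 72 h and 2.17 (1.10 to 4.51) at 240 h, with intervals that cover counting error only. Gm27818, a gene within the span of Fas, had 0 reads.

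**Figure D2:**
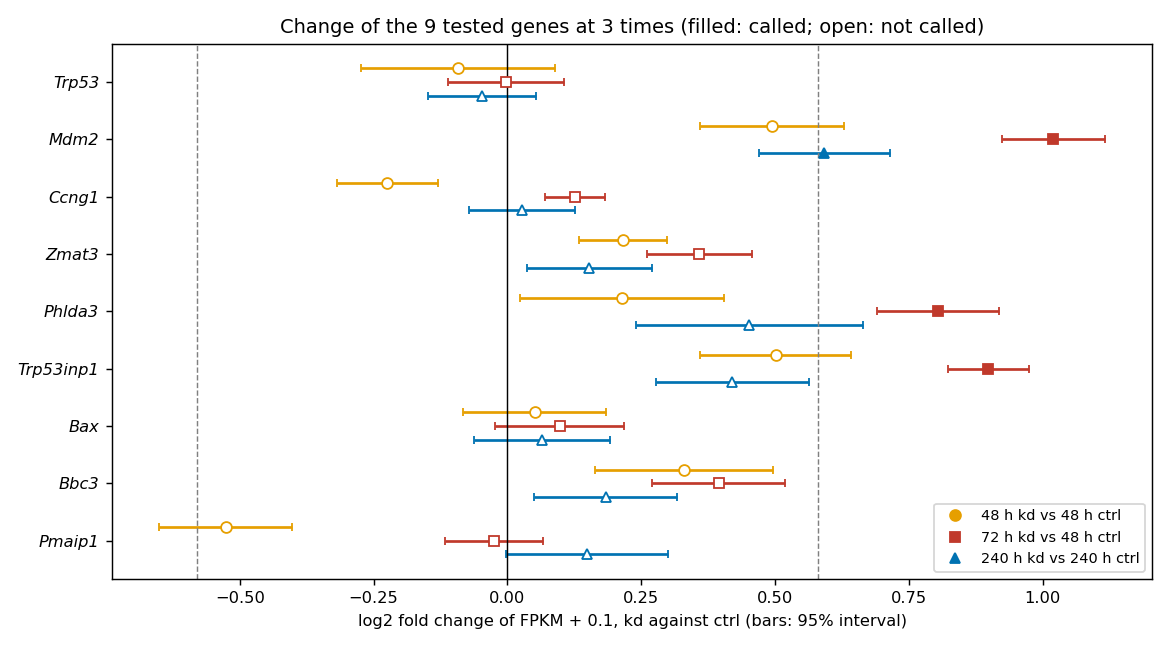
Log2 fold change of FPKM + 0.1 against ctrl (horizontal axis) for the 9 genes tested (vertical axis) at 48 h (circles), 72 h (squares) and 240 h (triangles). Bars are 95% intervals, dashed lines the required fold of 0.58 in either direction, and filled symbols called genes. Mdm2, Phlda3 and Trp53inp1 are filled at 72 h and Mdm2 at 240 h, and Pmaip1 at 48 h lies furthest to the left.

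Counted over the 9 genes tested, 0 were called at 48 h, 3 higher at 72 h (Mdm2, Phlda3 and Trp53inp1) and 1 higher at 240 h (Mdm2), with none lower. The share called higher among all genes was 1.99% at 48 h, 8.23% at 72 h and 4.79% at 240 h, and the share called lower was 2.01%, 5.30% and 4.12%. Without a required fold, 6 of the 9 genes had an adjusted p under 0.05 in limma at 48 h (4 higher, 2 lower), where 16.1% of all genes did (8.03% higher, 8.12% lower). At 72 h these were again 6 of the 9, all higher, where 55.0% of all genes did (28.9% higher, 26.0% lower). At 240 h they were 4 of the 9, all higher, where 33.8% of all genes did (17.3% higher, 16.4% lower). At 48 h, 7 of the 9 had an unadjusted p under 0.05, as did 31.9% of all genes, and voom on the recovered reads called 0. The count of 6 at 48 h was between 3 and 7 when 1 library was left out, with 3 without any one of the 48 h ctrl libraries or without 48 h kd replicate 3. After rescaling to TPM it was 4, with 13.2% of all genes. With the replicate number as a block in the fit it was 2 (Pmaip1 and Trp53inp1), with 3.95% of all genes. The median log2 fold change of the 9 genes was 0.21, 0.36 and 0.15 at 48 h, 72 h and 240 h, beside 0.01, 0.01 and −0.00 for all genes tested.

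The size of each change can be read against all genes tested. At 72 h the log2 fold change of Mdm2 was above that of 96.8% of genes, that of Trp53inp1 above 95.7% and that of Phlda3 above 94.5%. At 48 h Trp53inp1 and Mdm2 were above 94.2% and 94.0% of genes, and Pmaip1 was above only 4.12%. The 3 libraries of 72 h kd were above all other libraries for 4 of the 9 genes (Mdm2, Zmat3, Phlda3 and Trp53inp1), as for 16.8% of all genes. All 9 kd libraries were above all 6 ctrl libraries for 3 of the 9 (Mdm2, Zmat3 and Trp53inp1), as for 5.63% of all genes. Between the 2 ctrl groups 0 of the 9 were called by limma and 0 by voom, with 1 at an unadjusted p under 0.05, while 0.475% of all genes were called and 26.5% had an unadjusted p under 0.05. Between 72 h kd and 48 h kd 1 of the 9 rose, Phlda3, where 4.17% of all genes were called higher. The comparisons at 48 h and 72 h share the 48 h ctrl libraries.

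Other targets of p53 gave a broader view of the pathway. Of 45 listed, 35 were tested at 48 h (3 higher, 1 lower), 36 at 72 h (13 higher, 1 lower) and 36 at 240 h (8 higher, 1 lower). Of all genes, 1.99%, 8.23% and 4.79% were called higher and 2.01%, 5.30% and 4.12% lower at these times. Some of the genes called higher had a ctrl mean under 0.5 FPKM and so were tested only through the kd group where they were high: Tap1 at 48 h, Tap1, Lif and Apaf1 at 72 h, and Tap1 and Lif at 240 h, where Apaf1 is named only for this count, after its values were seen. Leaving these out, 2, 10 and 6 were called higher. Of the 33, 33 and 34 genes at or above 0.5 FPKM in both groups, 25, 27 and 22 had a log2 fold change above 0, as did 50.9%, 50.7% and 49.8% of all such genes. Their median was 0.13, 0.33 and 0.13, beside 0.00, 0.01 and −0.00 for all such genes. Plk3, a polo-like kinase of the stress response, rose at all 3 times. Plk3 rose 1.53-fold, 1.74-fold and 1.75-fold at 48 h, 72 h and 240 h (adjusted p = 0.0043, 0.00030 and 0.00046). Its call at 48 h was lost without 48 h ctrl replicate 2 (log2 fold change 0.55), with a pseudocount of 1 and after rescaling to TPM. Tap1, a peptide transporter of antigen presentation, had means of 0.374, 0.695 and 1.69 FPKM in 48 h ctrl, 48 h kd and 72 h kd and of 0.248 and 1.03 FPKM in 240 h ctrl and kd. Voom, whose minimum of 10 reads it passed in every library (28 to 51 reads in ctrl), called it higher at all 3 times (log2 fold change 0.88, 2.14 and 2.03, adjusted p = 0.00097, 3.5e-13 and 2.9e-08). Its span overlaps that of Psmb9 on the other strand.

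Cdkn1a, which encodes the cell cycle inhibitor p21, stood between 5.06 and 5.65 FPKM in the 6 ctrl libraries and at 7.66, 7.31 and 7.81 FPKM in the 48 h kd, 15.7, 16.0 and 15.4 FPKM in the 72 h kd and 7.27, 7.54 and 7.26 FPKM in the 240 h kd libraries. It rose 2.88-fold at 72 h (adjusted p = 2.1e-05) and was 1.40-fold higher at 48 h and 1.37-fold at 240 h (adjusted p = 0.0041 and 0.0015, under the required fold). As for Mdm2, Phlda3 and Trp53inp1, its 72 h kd libraries were the highest. Gdf15, a secreted factor of the stress response, rose 1.83-fold at 48 h (adjusted p = 0.0044) and 2.49-fold at 72 h (adjusted p = 0.00019). At 240 h it was 0.931-fold ctrl (adjusted p = 0.57), and the 240 h effect minus the 48 h effect was −0.98 on the log2 scale (adjusted p = 0.0036). Dcxr, a sugar reductase, rose 2.99-fold at 72 h and 1.65-fold at 240 h (adjusted p = 0.00084 and 0.0023). Ddit4, an inhibitor of mTORC1, rose 1.80-fold at 72 h and 1.76-fold at 240 h (adjusted p = 7.5e-05 and 0.0054). Lif, the cytokine that maintains pluripotency and is also in the medium as protein, had a mean of 0.399 FPKM in 240 h ctrl, under the minimum, and 0.935 FPKM in 240 h kd. On its reads, 71 to 77 per 240 h ctrl library and 183 to 197 per kd library, voom called it higher (log2 fold change 1.20, adjusted p = 2.7e-07).

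In limma 2 of the other targets were called lower at 1 or more times. Without a required fold, 3, 4 and 7 of the tested genes were lower at an adjusted p under 0.05 at 48 h, 72 h and 240 h, where 8.12%, 26.0% and 16.4% of all genes were. On the other side 12, 25 and 17 were higher, where 8.03%, 28.9% and 17.3% of all genes were. Of the 33, 33 and 34 at or above 0.5 FPKM in both groups, 11, 22 and 15 were higher and 3, 4 and 7 lower. Among all such genes, 863 of 10879, 3061 of 10723 and 1812 of 10747 were higher, and 867, 2824 and 1727 lower. Perp, a membrane protein of cell death and of desmosomes, fell to 0.533-fold at 48 h (adjusted p = 0.0011) and 0.354-fold at 72 h (adjusted p = 3.2e-05). Its libraries were at 5.74, 6.42 and 6.09 FPKM in 48 h ctrl, 3.29, 3.07 and 3.21 FPKM in 48 h kd and 2.13, 2.04 and 2.08 FPKM in 72 h kd, without overlap. At 240 h it was at 4.88, 5.30 and 5.35 FPKM in ctrl and 3.67, 3.85 and 3.70 FPKM in kd, also without overlap, at 0.729-fold ctrl (adjusted p = 0.0014, under the required fold). Bid, a BH3-only protein cleaved by caspase-8, fell to 0.604-fold at 240 h (adjusted p = 0.00057) and was 0.761-fold ctrl at 48 h and 0.759-fold at 72 h (adjusted p = 0.0071 and 0.00069, under the required fold), and 3 listed genes overlap its span.

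**Figure D3:**
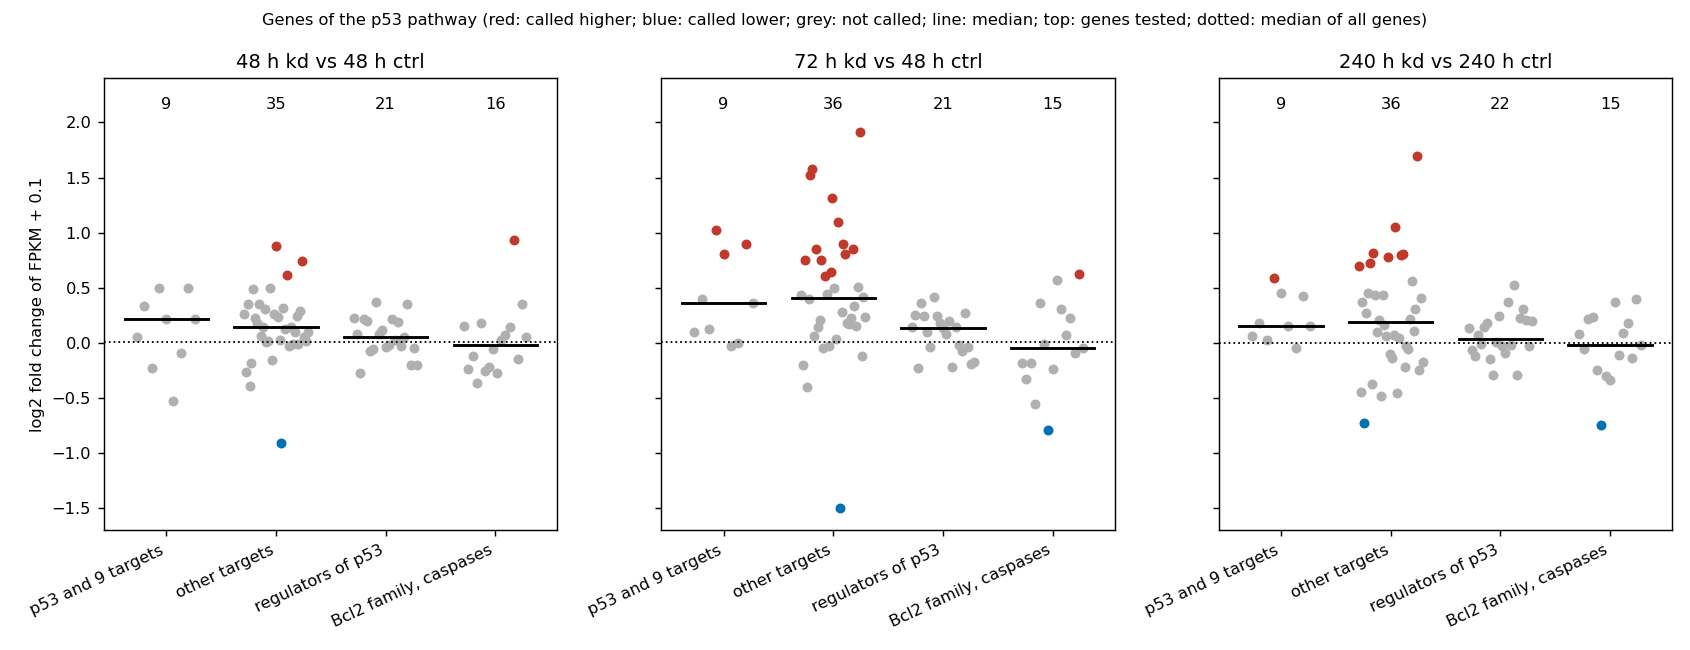
Log2 fold change of FPKM + 0.1 (vertical axis) at 48 h, 72 h and 240 h (panels) for the tested genes of 4 lists (horizontal axis): p53 with its 9 targets, other targets, regulators of p53, and the Bcl2 family with caspases. Each point is a gene (red called higher, blue called lower, grey not called), lines are medians of all tested genes of a list, those high in kd only included, the dotted line is the median of all genes, and the number on top counts genes tested. The other targets hold 3, 13 and 8 red points, and the regulators hold none.

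Of the regulators of p53, limma called none against ctrl and voom called some with low FPKM. Of 28 listed, 21, 21 and 22 were tested at 48 h, 72 h and 240 h, and limma called 0 at each time, with 9, 13 and 10 at an unadjusted p under 0.05, where 31.9%, 60.8% and 44.9% of all genes were. Voom, which tests genes by reads and not by FPKM, called 1 higher and 1 lower at 48 h, 2 higher at 72 h and 1 higher at 240 h. Mdm4, the relative of Mdm2 that blocks the activation domain of p53, had log2 fold changes of 0.37, 0.41 and −0.30 (adjusted p = 0.20, 0.016 and 0.15). Over 17 alternatives the 72 h value of Mdm4 was as low as 0.20, with an adjusted p from 2.4e-07 to 0.26. When single libraries were left out, that adjusted p was up to 0.053. The difference between the 240 h and 48 h effects on Mdm4 was −0.67 (adjusted p = 0.087), and was called lower by voom (−0.69, adjusted p = 0.0096) and by limma without 48 h kd replicate 1 (−0.80) or 240 h ctrl replicate 3 (−0.81). Trp73, a member of the p53 family, was under the minimum of 0.5 FPKM on its long span, with 105, 73 and 80 reads in 48 h ctrl, 167, 174 and 171 in 48 h kd and 215, 182 and 218 in 72 h kd. At 240 h it had 107, 116 and 128 reads in ctrl and 242, 223 and 212 in kd, and voom called it higher at all 3 times (log2 fold change 1.06, 1.14 and 0.79, adjusted p = 2.3e-05, 1.2e-09 and 1.3e-05). The antisense gene Trp73os lies in its span, and of all genes that voom tested, 4.29%, 11.8% and 9.64% were called higher and 5.00%, 10.6% and 8.41% lower at 48 h, 72 h and 240 h. Cdkn2a, whose product Arf binds Mdm2, had 62, 39 and 46 reads in 48 h ctrl, 31, 28 and 27 in 48 h kd and 89, 99 and 107 in 72 h kd. At 240 h it had 45, 61 and 48 reads in ctrl and 71, 85 and 87 in kd. Voom called it lower at 48 h (−0.69, adjusted p = 0.017) and higher at 72 h (0.90, adjusted p = 1.1e-05), and at 240 h it was higher by less than the required fold (0.51, adjusted p = 0.014).

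Among 20 genes of the Bcl2 family and caspases, 16, 15 and 15 were tested, with 1 higher at 48 h, 1 higher and 1 lower at 72 h and 1 lower at 240 h. Of all genes, 1.99% were called higher at 48 h, 8.23% higher and 5.30% lower at 72 h and 4.12% lower at 240 h. Voom, which tested all 20, called 1 higher at 48 h, 3 higher and 4 lower at 72 h and 1 lower at 240 h. Of all genes voom tested, 4.29% were called higher at 48 h, 11.8% higher and 10.6% lower at 72 h and 8.41% lower at 240 h. The call at 48 h was Hrk, a BH3-only gene at 0.314, 0.334 and 0.324 FPKM in ctrl and 0.706, 0.766 and 0.665 FPKM in kd, which was tested only through the kd group and not at 72 h or 240 h against ctrl. On 91 to 107 reads per 48 h ctrl library and 183 to 223 per 48 h kd library, voom called it higher at 48 h (log2 fold change 1.13, adjusted p = 1.0e-05), and also at 72 h (0.91, adjusted p = 2.0e-08). At 240 h voom did not call it (−0.07, adjusted p = 0.70). At 72 h Mcl1, a prosurvival member, rose 1.54-fold (adjusted p = 0.00013), and Bok, a relative of Bax, fell to 0.578-fold (adjusted p = 0.00020). At 240 h Bmf, a further BH3-only gene, fell to 0.594-fold (adjusted p = 0.00091). The median log2 fold change of the list was −0.02, −0.05 and −0.02, and −0.06 at 48 h without Hrk.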

How the data were processed

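RNA-seq was analysed in 15 libraries of 81K1 cells, 3 in each of 5 groups taken from the sample labels. Per the study's methods, single-end reads were aligned to mm10 by STAR, GenomicRanges and Rsamtools made a count per gene, and the authors tested these with DESeq2. Versions in the submitters' processing notes are STAR 2.7.0c, DESeq2 1.30.0 (as the authors used it) and R 4.0.3. The study names a GENCODE release for GRCm38 for its ChIP-seq peaks, but the gene annotation behind these counts is not given in the sources used here. Position and symbol matched GENCODE M21 for 96.5% of the genes. The authors deposited FPKM, and the values multiplied by gene span and 1 library total they gave whole reads for 100% of values (tolerance 0.001). These totals were 11074998 to 14515300 reads. Summed over genes, the recovered reads exceeded them by 7.38% to 8.34%, so that some were counted in more than 1 gene. Spans include introns.

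Tests were two-sided moderated tests of limma 3.58.1 (R 4.3.3; trended eBayes prior) on log2(FPKM + 0.1). A gene entered a comparison if its mean there reached 0.5 FPKM. Adding 0.1 understates changes of low genes. P-values were adjusted over all genes tested (Benjamini-Hochberg). As the study did, a gene was called where the adjusted p was under 0.05 and the log2 fold change exceeded 0.58 in size, and 72 h kd was set against 48 h ctrl. Other kd groups were fitted with their own ctrl group. The difference of effects was an interaction term over the 12 libraries of 48 h and 240 h. The same calls were made with limma voom on recovered reads with TMM factors (mean of at least 10 reads). Scripts were tested on simulated data. Poisson intervals and promoter searches used Python 3.11.15 with scipy 1.17.1.

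The genes and lists were chosen with earlier results of these data known. Named were the 10 genes, Smarcb1, Cdkn1a, Mdm4, Trp73 and Cdkn2a, and, from the lists of other targets, regulators and Bcl2 family genes, those called at all 3 times in 1 direction and the 3 largest rises and falls per list and time among called genes. Overlapping genes, single libraries, pseudocount, FPKM minimum, scaling, variance model, control group and a replicate block were examined as alternatives.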

Additional observations from a re-analysis of the deposited data

Results flagged for a closer look

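The effect of the knockdown on Pmaip1 differed between 48 h and 240 h by a test of the difference itself. The interaction term was 0.67 on the log2 scale (0.674885 unrounded, adjusted p = 0.00043 in limma). All 3 kd libraries lay below all 3 ctrl libraries at 48 h and above them at 240 h. The 240 h difference itself was 1.11-fold and did not pass the test (adjusted p = 0.12 in limma). At 240 h, kd lay above ctrl without overlap for 25.3% of all genes. The term was called when any 1 of the 12 libraries was left out and under every alternative except a pseudocount of 1, where it was 0.57.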

How the results depend on the processing

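The 9 tested genes gave 3 calls at 72 h under all 17 alternatives, 240 h ctrl in place of 48 h ctrl included, and 0 calls at 48 h and between the ctrl groups under all 16. At 240 h the count of 1 became 0 with a pseudocount of 1 and with quantile normalization, and was 0 to 1 when single libraries were left out. Between 72 h kd and 48 h kd the count of 1 became 0 with a pseudocount of 1 and with voom and 2 after rescaling to TPM (Mdm2 added), and was 0 to 1 when single libraries were left out. For the difference between 240 h and 48 h effects the count of 1 became 0 with a pseudocount of 1. A pseudocount of 1 shrinks the change of low genes by construction, and the cause of the other changes was not tested. No called value changed sign in 2326 refitted values of the named genes, and 46 values called in neither fit did. Over all genes, the calls at 72 h ran from 745 of 11440 with a pseudocount of 1 to 3614 of 16146 with voom. These alternatives gave 208 of 11420 and 1497 of 16108 at 48 h. At 240 h they gave 541 of 11401 and 3003 of 16633, and between the kd groups 365 of 11500 and 2101 of 16104. For the difference of effects they gave 333 of 11412 and 1734 of 16403.

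With a replicate block 2 of the 9 genes in place of 6 had an adjusted p under 0.05 at any fold at 48 h, with 3.95% of all genes in place of 16.1%. At the required fold the members called were 0 at 48 h, 3 at 72 h, 1 at 240 h, 0 between ctrl groups, 1 between kd groups and 1 for the difference of effects. Same-numbered libraries correlated between −0.105 and 0.142 in their deviations from group means, and differently numbered ones between −0.220 and 0.224. With 3 libraries per group these values cannot show whether equal numbers mean a shared culture or batch, which the labels do not give. The replicate block lowered the calls over all genes from 456 to 285 at 48 h and from 54 to 0 between ctrl groups, and left the Tap1 and Hrk calls at 48 h at an adjusted p of 0.062 and 0.050. Both limma calls were also lost with a pseudocount of 1, and that of Hrk with quantile normalization. Depth limited Fas, at 2 to 14 reads per library. Values of overlapping genes were limited in another way, since reads of a shared stretch cannot be told apart.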
